A study of Mus musculus with 21 samples.

Results

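The lymphocyte markers described here were 29 genes whose transcripts are used to recognise T cells, B cells and natural killer (NK) cells in mixed tissue RNA. They were taken by gene symbol from RNA-seq count tables of mouse brown fat (BAT, brown adipose tissue) and of the white part of the vastus lateralis muscle (WV), using the gene model with the highest summed count for each symbol. All 29 of 29 symbols were found among the 28541 gene models, and each had 1 model. By role, 13 marked T cells, 7 marked B cells, 2 marked NK and cytotoxic cells and 7 were shared by lymphocytes or by leukocytes more widely.

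T cells recognise antigen through a receptor that signals through the CD3 chains and the kinases Lck and Zap70, with CD4 or CD8 as coreceptor and CD28 and CD27 as costimulatory receptors. B cells signal through their surface antibody and its partners CD79A and CD79B, and are set on their course by the factor PAX5. Resident lymphocytes are a small part of healthy brown fat and skeletal muscle, both of which can lie close to lymph nodes and carry blood.

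The mice were BATI4KO animals and their floxed littermates. From knowledge of the study, BATI4KO mice lack the transcription factor gene Irf4 in brown adipocytes; the deleted exons, the Cre driver, the age and the sex were not given in the labels used here, and both genotypes were taken as carrying the floxed Irf4 allele. BAT gave 5 floxed libraries (titled FX_1, FX_2, FX_3, FX_5497 and FX_5503) and 6 BATI4KO libraries (titled KO_1, KO_2, KO_3, KO_5414, KO_5492 and KO_5494). WV gave 5 floxed libraries (FX_5413, FX_5415, FX_5497, FX_5503 and FX_5514) and 5 BATI4KO libraries (KO_5492, KO_5493, KO_5494, KO_5495 and KO_5496). The labels did not say whether libraries came from separate animals, so p-values measure the spread between libraries.

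Depth lay between 20219479 and 41773148 counts a library for BAT and between 30479508 and 40328627 for WV. Levels are given as CPM, a library's counts scaled to a common total, with TMM scaling, a correction for RNA composition, within a tissue unless stated otherwise. A count of 3 in a library, taken as the floor, was worth 0.0831 to 0.148 CPM in BAT and 0.0689 to 0.104 CPM in WV, and many members stood only a little above it. Irf4, which lymphocytes and macrophages also transcribe, was at 23.9 to 59.8 CPM in floxed BAT and at 6.57 to 8.10 CPM in BATI4KO BAT, with no overlap. KO_5414, the library in which most members were highest, had the lowest Irf4 level of all, 6.57 CPM. The brown fat libraries also differed by title number, since the level of Rmrp, a noncoding RNA, was 299 to 1330 CPM under numbers 1 to 3 and 11.7 to 32.3 CPM under the longer numbers. The BAT genotype test therefore carried the kind of title number as a covariate. In WV, Rmrp was at 107 to 133 CPM in floxed libraries FX_5497, FX_5503 and FX_5514. It was at 11.8 to 22.4 CPM in the other floxed WV libraries and in all BATI4KO ones. The WV genotype test carried no term for this split, and its part in the WV result was not tested.

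Most lymphocyte markers were highest in 1 BATI4KO brown fat library, KO_5414. It was the highest of the 11 BAT libraries for 24 of the 29 members, against 10.2% of all tested models. It was over 2 times the next highest library for 14 members, against 0.405% of all tested models. The member counts include Cd3g, Cd8b1, Cd6, Blk and Pax5, which were too low to be among the tested models. All of these were highest in KO_5414 and over 2 times the next library, so the counts and the shares cover different sets. The median over members was 1.97 times the next highest library and 3.96 times the median of the other 10. By role, KO_5414 was highest for 11 of 13 T cell markers, 6 of 7 B cell markers, 1 of 2 NK markers and 6 of 7 shared markers. In whole-tissue RNA, a larger number of cells of a type and more RNA per cell cannot be told apart.

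**Figure D1:**
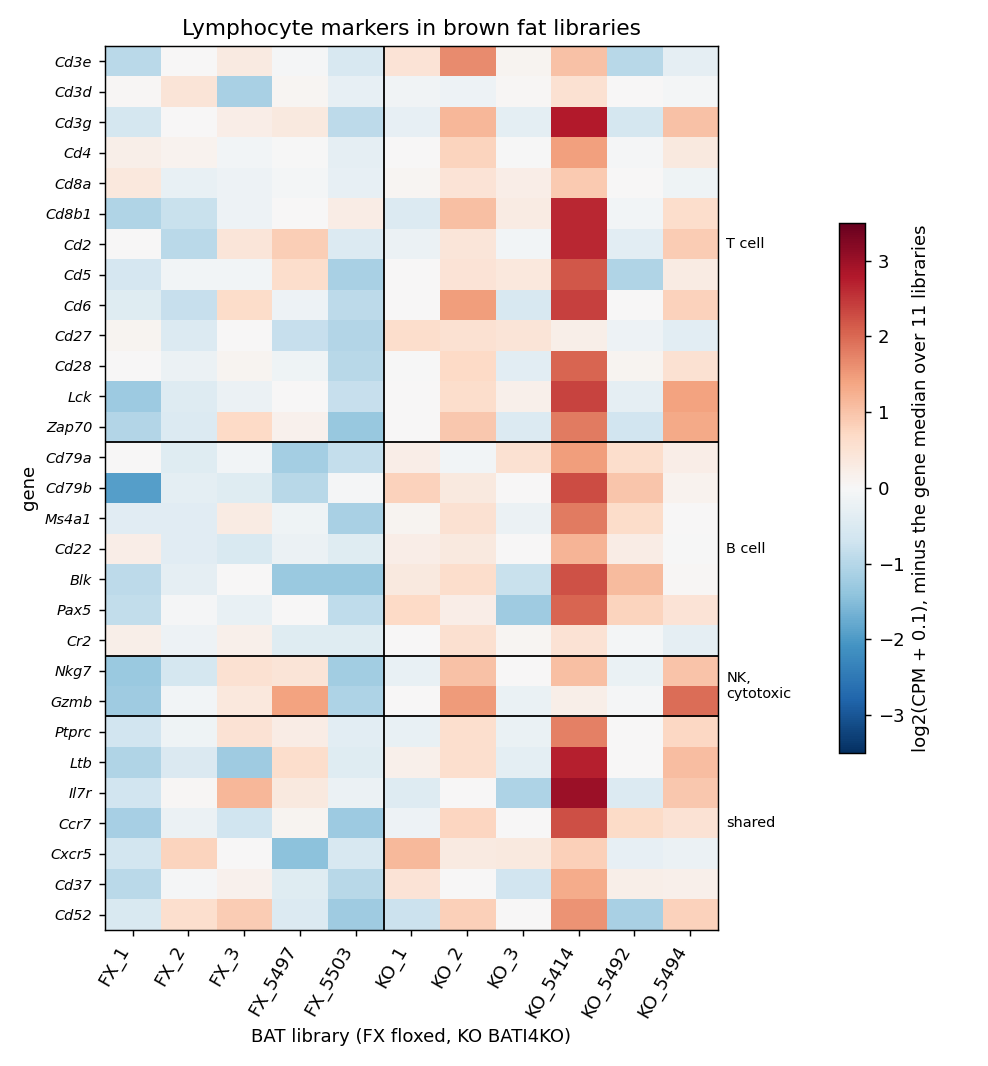
Each row is 1 of the 29 members and each column 1 of the 11 BAT libraries, floxed to the left of the vertical line. Colour gives log2(CPM + 0.1) minus the gene's median over the 11 libraries. The column of KO_5414 is darkest for T cell, B cell and shared markers, while Gzmb is highest in KO_5494.

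A cluster of 3 neighbouring genes encodes the CD3 chains, which carry the T cell receptor signal into the cell. Their promoters are shown because the 3 genes are neighbours, yet they stood out unequally in KO_5414. The windows cover 250 bases before to 50 bases after the start in RefSeq (GRCm38.p6), and lie at chr9:44980382-44980681 (minus strand, Cd3g), chr9:44981536-44981835 (plus strand, Cd3d) and chr9:45009562-45009861 (minus strand, Cd3e). The Cd3g and Cd3d windows are 854 bases apart and read in opposite directions. For comparison, the promoters of the B cell gene Cd79a (chr7:24897247-24897546, plus strand) and of Il7r (chr15:9529827-9530126, minus strand), the member that stood furthest above the next library, follow. Capitals mark E-box (CAGGTG or CACCTG), ETS (GGAAGT or ACTTCC) and RUNX (TGTGGT or ACCACA) letters on either strand, and none overlap.
Cd3g: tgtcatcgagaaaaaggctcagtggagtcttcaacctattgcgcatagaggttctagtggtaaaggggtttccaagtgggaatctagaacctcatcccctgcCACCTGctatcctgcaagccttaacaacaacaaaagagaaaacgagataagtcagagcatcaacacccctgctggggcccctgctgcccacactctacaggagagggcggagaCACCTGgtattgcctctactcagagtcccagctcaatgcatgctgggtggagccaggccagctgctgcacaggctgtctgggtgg
Cd3d: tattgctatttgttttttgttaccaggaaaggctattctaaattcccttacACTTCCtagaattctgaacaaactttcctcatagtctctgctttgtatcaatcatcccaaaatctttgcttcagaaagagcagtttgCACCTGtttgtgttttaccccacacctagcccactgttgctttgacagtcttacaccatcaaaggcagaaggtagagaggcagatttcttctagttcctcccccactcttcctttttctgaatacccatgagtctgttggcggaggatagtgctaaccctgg
Cd3e: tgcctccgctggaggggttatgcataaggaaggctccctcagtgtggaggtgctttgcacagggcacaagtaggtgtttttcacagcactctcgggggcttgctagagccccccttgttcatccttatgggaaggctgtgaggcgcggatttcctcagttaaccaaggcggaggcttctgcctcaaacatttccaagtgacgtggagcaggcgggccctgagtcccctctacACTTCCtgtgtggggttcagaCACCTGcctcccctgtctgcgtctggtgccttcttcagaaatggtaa
Cd79a: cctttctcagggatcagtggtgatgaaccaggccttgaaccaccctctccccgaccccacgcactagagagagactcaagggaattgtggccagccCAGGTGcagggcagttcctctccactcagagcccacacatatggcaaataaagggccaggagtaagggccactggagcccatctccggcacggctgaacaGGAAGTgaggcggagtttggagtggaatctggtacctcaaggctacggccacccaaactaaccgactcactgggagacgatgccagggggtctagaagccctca
Il7r: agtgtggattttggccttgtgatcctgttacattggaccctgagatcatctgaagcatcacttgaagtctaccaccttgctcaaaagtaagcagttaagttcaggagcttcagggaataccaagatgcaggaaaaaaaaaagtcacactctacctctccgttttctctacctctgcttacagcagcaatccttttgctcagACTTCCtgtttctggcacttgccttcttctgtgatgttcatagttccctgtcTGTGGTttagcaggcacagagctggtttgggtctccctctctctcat

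Promoter windows were matched for 18 of the 29 members. E-box letters stood in 11 of these 18 genes, against 20.21% of the 32851 promoter windows in the table. ETS letters stood in 10 of 18 against 23.77%, and RUNX letters in 5 of 18 against 16.76%. The B cell octamer part (TTTGCAT or ATGCAAA) was in none of the 18, against 4.63% of all windows. The shares describe letters only. Some members have more than 1 window, which gives such genes more chances to hold the letters. Counts of genes and shares of windows are therefore not like measures.

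Of the CD3 genes, Cd3g separated KO_5414 most sharply. It had 67 counts there and 2 to 16 counts in the other 10 BAT libraries, or 1.94 CPM against at most 0.565 CPM. Cd3d had 95 counts in KO_5414 and 16 to 79 in the others, so that library was only 1.07 times the next. Cd3e had 36 counts in KO_5414 and 6 to 47 in the others, and its highest library was KO_2. The 3 genes thus gave different orders of the libraries, although their products work as 1 complex.

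Among the remaining T cell markers, Cd2, an adhesion receptor, had the widest gap. In floxed BAT it was at 0.345, 0.131, 0.494, 0.716 and 0.222 CPM in libraries FX_1, FX_2, FX_3, FX_5497 and FX_5503. In BATI4KO BAT it was at 0.285, 0.494, 0.315, 2.66, 0.247 and 0.732 CPM in libraries KO_1, KO_2, KO_3, KO_5414, KO_5492 and KO_5494. Only KO_5414 lay outside the floxed range by a wide margin, at 3.63 times the next library, and the other BATI4KO values overlapped the floxed ones. Cd8b1, the second chain of the CD8 coreceptor, was at 2.03 CPM in KO_5414 and at most 0.600 CPM elsewhere. Cd5, a brake on T cell receptor signalling, was at 2.29 CPM against at most 0.716 CPM. Lck, the kinase that starts the receptor signal, had 147 counts in KO_5414, 56 in KO_5494 and 8 to 34 in the other 9 libraries. Cd28, a costimulatory receptor, was at 4.02 CPM in KO_5414 and at most 1.55 CPM elsewhere, and Cd6, an adhesion and signalling receptor, was at 1.71 against at most 0.847 CPM.

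Other T cell markers stood out less. Cd4, the coreceptor of helper T cells that macrophages can also carry, was at 4.60 CPM in KO_5414 and 2.90 CPM in the next library. Cd8a was at 2.86 CPM against 2.12 CPM. Zap70, the kinase that binds activated CD3 chains, was at 1.504 CPM against 1.04 CPM. Cd27, a costimulatory receptor, did not follow the rest: it was at 2.167, 1.44, 2.03, 1.13 and 0.942 CPM in floxed libraries FX_1, FX_2, FX_3, FX_5497 and FX_5503, and at 3.17, 3.0, 2.79, 2.37, 1.79 and 1.54 CPM in BATI4KO libraries KO_1, KO_2, KO_3, KO_5414, KO_5492 and KO_5494. There 3 libraries were above KO_5414, and the genotypes overlapped across the title numbers, although within each kind of title number the BATI4KO libraries were all higher. RefSeq places a long noncoding RNA (E130112N10Rik) and a microRNA gene over Cd27, and library preparation without a stated strand mark leaves such reads impossible to tell apart.

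B cell markers were highest in the same library, except Cr2. Cd79b, a partner in the signalling pair of the B cell receptor, was at 0.126, 0.588, 0.544, 0.341 and 0.748 CPM in floxed libraries FX_1, FX_2, FX_3, FX_5497 and FX_5503. In BATI4KO libraries KO_1, KO_2, KO_3, KO_5414, KO_5492 and KO_5494 it was at 1.43, 0.989, 0.766, 4.14, 1.60 and 0.848 CPM. All 6 BATI4KO libraries lay above all 5 floxed ones, with or without KO_5414, and Cd79b was the only member for which that was so. Over all tested BAT models, 92 separated that way upward and 69 downward. Its partner Cd79a was at 3.53 CPM in KO_5414 and 1.13 to 1.94 CPM in the other BATI4KO libraries, against 0.478 to 1.22 CPM in floxed BAT, a small overlap.

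The other B cell markers followed to different degrees. Pax5, the factor that fixes B cell identity, had 30 counts in KO_5414 and 0 to 10 in the other 10 libraries, at 0.868 against at most 0.308 CPM. Blk, a B cell kinase of the Src family, had 37 counts in KO_5414, 14 in KO_5492 and 0 in FX_5497 and FX_5503. Ms4a1, which encodes CD20, was at 4.31 CPM against at most 1.85 CPM, and Cd22, an inhibitory coreceptor, at 4.92 against at most 2.72 CPM. Cr2, the complement receptor CD21, had the smallest gap of this group: floxed libraries FX_1, FX_2, FX_3, FX_5497 and FX_5503 were at 3.52, 2.68, 3.46, 2.25 and 2.22 CPM, and BATI4KO libraries KO_1, KO_2, KO_3, KO_5414, KO_5492 and KO_5494 at 3.03, 4.55, 3.20, 4.34, 2.87 and 2.43 CPM. The Cr2 groups overlapped, and KO_2 was slightly above KO_5414.

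Neither cytotoxic marker set KO_5414 clearly apart from all other libraries. Gzmb, which encodes the killing protease granzyme B, was at 0.0628, 0.261, 0.395, 0.921 and 0.0831 CPM in floxed libraries FX_1, FX_2, FX_3, FX_5497 and FX_5503. In BATI4KO libraries KO_1, KO_2, KO_3, KO_5414, KO_5492 and KO_5494 it was at 0.285, 0.989, 0.225, 0.347, 0.277 and 1.39 CPM, and 4 libraries were above KO_5414. Nkg7, a granule membrane protein, was at 1.04 CPM in KO_5414, 1.02 CPM in KO_2, 1.0 CPM in KO_5494 and 0.126 to 0.692 CPM in floxed BAT. In 9 further NK and cytotoxic genes with at least 10 counts in some library, KO_5414 was the highest for 0.

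Shared markers included the largest gaps. Il7r, the receptor chain for interleukin-7 on which naive and memory T cells depend, was at 0.691, 1.21, 2.72, 1.501 and 0.998 CPM in floxed libraries FX_1, FX_2, FX_3, FX_5497 and FX_5503. In BATI4KO libraries KO_1, KO_2, KO_3, KO_5414, KO_5492 and KO_5494 it was at 0.820, 1.16, 0.496, 10.04, 0.802 and 2.31 CPM. KO_5414, with 347 counts, stood 3.69 times above the next, a floxed one, and the other BATI4KO libraries lay within or below the floxed range. Ltb, the lymphotoxin chain needed to build lymph nodes, was at 3.01 CPM against at most 0.886 CPM. Ccr7, the receptor that guides lymphocytes and dendritic cells into lymph nodes, was at 2.95 CPM against at most 0.989 CPM.

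Ptprc, the pan-leukocyte phosphatase CD45, had 1861 counts in KO_5414, or 53.8 CPM, against 9.86 to 26.3 CPM in the other 10 libraries. Per kilobase, on the scale shared by all 21 libraries, it was also the most abundant member in floxed BAT, at 1.64 ± 0.53 RPKM (CPM per kilobase of model; SD, n = 5), followed by Cd52, a small lymphocyte surface protein, at 1.30 ± 0.84 RPKM. These 2 did not differ beyond their spread, and the lowest member was Blk at 0.0164 ± 0.019 RPKM. Cd37, a tetraspanin of B cells, was at 3.62 CPM in KO_5414 against at most 1.997 CPM, and Cd52 at 2.75 against at most 1.68 CPM. Cxcr5, the chemokine receptor of follicles, was at 0.314, 1.01, 0.544, 0.136 and 0.333 CPM in floxed libraries FX_1, FX_2, FX_3, FX_5497 and FX_5503, and at 1.32, 0.706, 0.721, 1.04, 0.432 and 0.462 CPM in BATI4KO libraries KO_1, KO_2, KO_3, KO_5414, KO_5492 and KO_5494. Its groups overlapped, KO_5414 was second, and the protein-coding gene Bcl9l overlaps it. RefSeq also places noncoding RNA genes over Lck, Ms4a1, Blk, Pax5, Cr2 and Ltb and a pseudogene over Zap70. Overlaps were thus not limited to members that failed to peak in KO_5414.

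The genotype comparison asked whether brown fat without Irf4 held more lymphocyte RNA. No member passed edgeR's quasi-likelihood test at an adjusted p of 0.05 over all tested models: 24 members entered the test, 0 passed, and 9 had an unadjusted p under 0.05. Of all 16051 models, 2366 had an unadjusted p under 0.05. The members' 9 became 15 of 23 without KO_5492 (1955 of 15903 models) and 6 of 25 without FX_5503 (1508 of 16174 models). With library totals only it became 16 of 24 (3011 of 16051 models). With no filter on low counts it became 16 of 29 (2642 of 21949 models). Over all 16051 models tested, 7 passed, or 0.0436%. Cd3g, Cd8b1, Cd6, Blk and Pax5 were too low in too many libraries to be tested. The fitted log2 difference, BATI4KO minus floxed, was positive for 24 of the 24 members, with a median of 0.87. It was positive for 48.8% of all tested models, with a median of -0.01. The filter on low counts can favour a positive sign for members low in floxed BAT. Ltb and Ccr7, among them, were at 0.0988 to 0.614 and 0.166 to 0.580 CPM there. With no such filter, 29 of 29 members were positive, with a median of 0.95, against 0.009 for all models.

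The smallest adjusted p was that of Cd27, 0.145, at a log2 difference of 0.76 (SE 0.17). The largest log2 difference was that of Cd79b, 1.68 (SE 0.47, adjusted p = 0.188). Ltb had 1.63 (SE 0.55, adjusted p = 0.208), Ccr7 1.58 (SE 0.49, adjusted p = 0.195) and Lck 1.52 (SE 0.48, adjusted p = 0.201). Cd3d and Il7r had the largest adjusted p, with log2 differences of 0.11 (SE 0.26, adjusted p = 0.872) and 0.41 (SE 0.73, adjusted p = 0.830). DESeq2 called 2 members higher, Cd27 (log2 0.76, adjusted p = 0.0197) and Cd79b (log2 1.65, adjusted p = 0.0272), and voom called 0. Over all 16051 models DESeq2 called 198 higher, or 1.23%, and 174 lower.

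Without KO_5414 the differences were smaller and most kept their sign. The median fell from 0.87 to 0.59, and 21 of the 22 members still tested remained positive, against 49.3% of all tested models. Again 0 members passed, and DESeq2 and voom called 0 each. An unadjusted p under 0.05 in edgeR was found for 7 of the 22 members, against 2403 of 15878 models. Cd27 had a log2 difference of 0.68 (SE 0.16, adjusted p = 0.163), Cd79b 1.28 (SE 0.38, adjusted p = 0.221), Lck 1.13 (SE 0.39, adjusted p = 0.243) and Cd79a 0.89 (SE 0.27, adjusted p = 0.221). Il7r turned to -0.35 (SE 0.44, adjusted p = 0.729), and Cd3d was at 0.00 (SE 0.26, adjusted p = 0.998). On plain means, the 5 other BATI4KO libraries were above the 5 floxed ones for 28 of 29 members, by a median ratio of 1.60, with Il7r as the exception.

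**Figure D2:**
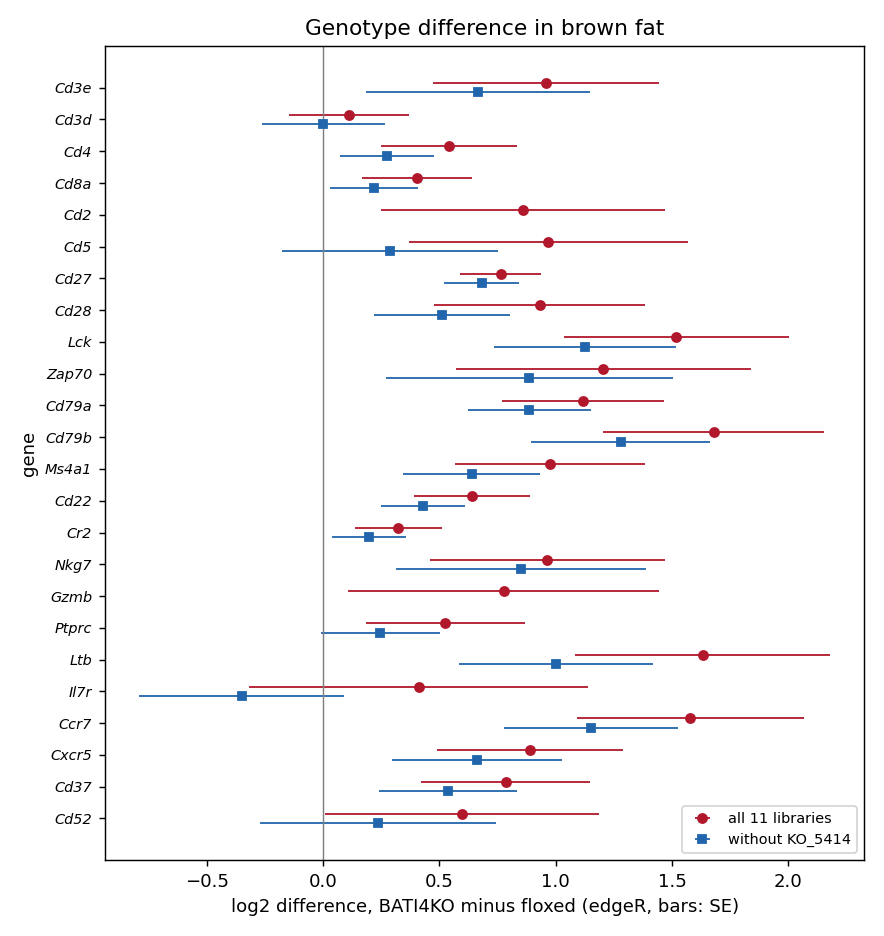
Points give the edgeR log2 difference, BATI4KO minus floxed, with SE bars, for the 24 members tested in BAT (circles, all 11 libraries) and the 22 tested without KO_5414 (squares). Squares lie to the left of circles for all members with both, and Il7r alone crosses 0.

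The size of the difference varied with the kind of title number. Among libraries numbered 1 to 3, 18 of 21 tested members were positive, with a median log2 difference of 0.40. Among the longer numbers, all 29 members were positive with a median of 1.73. Without KO_5414, which left 2 against 2 libraries, 22 of 24 were positive with a median of 0.73. The medians over all tested models were 0.0006, 0.0084 and 0.0045, in that order. Members too low for the main fit, among them Blk and Pax5, entered the longer-number fit through BATI4KO libraries. Blk had 0 counts in FX_5497 and FX_5503, and Pax5 had 4 and 1, so the filter set their positive sign in advance. None of these fits called a member.

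Genes of antigen receptor signalling outside the 29 members were counted the same way. Of 19 T cell receptor signalling genes, KO_5414 was the highest for 16 and over 2 times the next for 7. Of 17 measured B cell receptor signalling genes it was the highest for 15 and over 2 times the next for 6. No gene of these lists passed the test: Grap2, an adaptor in T cells, had a log2 difference of 1.18 (SE 0.35, adjusted p = 0.191) and Prkcq, a T cell kinase, 0.61 (SE 0.18, adjusted p = 0.190). Prkcq was highest not in KO_5414, at 9.95 CPM, but in KO_3, at 15.8 CPM, the BAT library with the highest sum of 9 skeletal muscle genes, 19893 CPM. It was at 71.3 to 101 CPM in WV, and the part of muscle RNA in its BAT values was not tested.

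Genes of lymph node stroma and high endothelial venules, the vessels through which lymphocytes enter a node, were set beside these values. Of 10 listed genes 9 were measured, and 4 had 0 counts in KO_5414: the chemokines Ccl19 and Ccl21a, the addressin Madcam1 and the sulfotransferase Chst4. The first pair have near-identical copies in the mouse genome, among which reads may have been split or lost, and all 4 were at or below 0.0713 CPM in every BAT library. Glycam1, a mucin of these venules, was at 0.579 CPM in KO_5414 and at 0.123 to 0.648 CPM in the others. Cxcl13, the follicle chemokine, was at 0.203 CPM, within the 0.0326 to 1.19 CPM of the others. Il33, a stromal cytokine, was at 2.11 CPM, and Pdpn, a membrane glycoprotein of reticular cells, at 0.521 CPM, both within the range of the other libraries. Mfge8, which many cell types make, was highest in KO_5414, at 111.8 CPM against 52.6 to 86.9 CPM. None of the 4 stroma genes tested passed between genotypes, and whether lymph node tissue was in this sample was not tested.

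**Figure D3:**
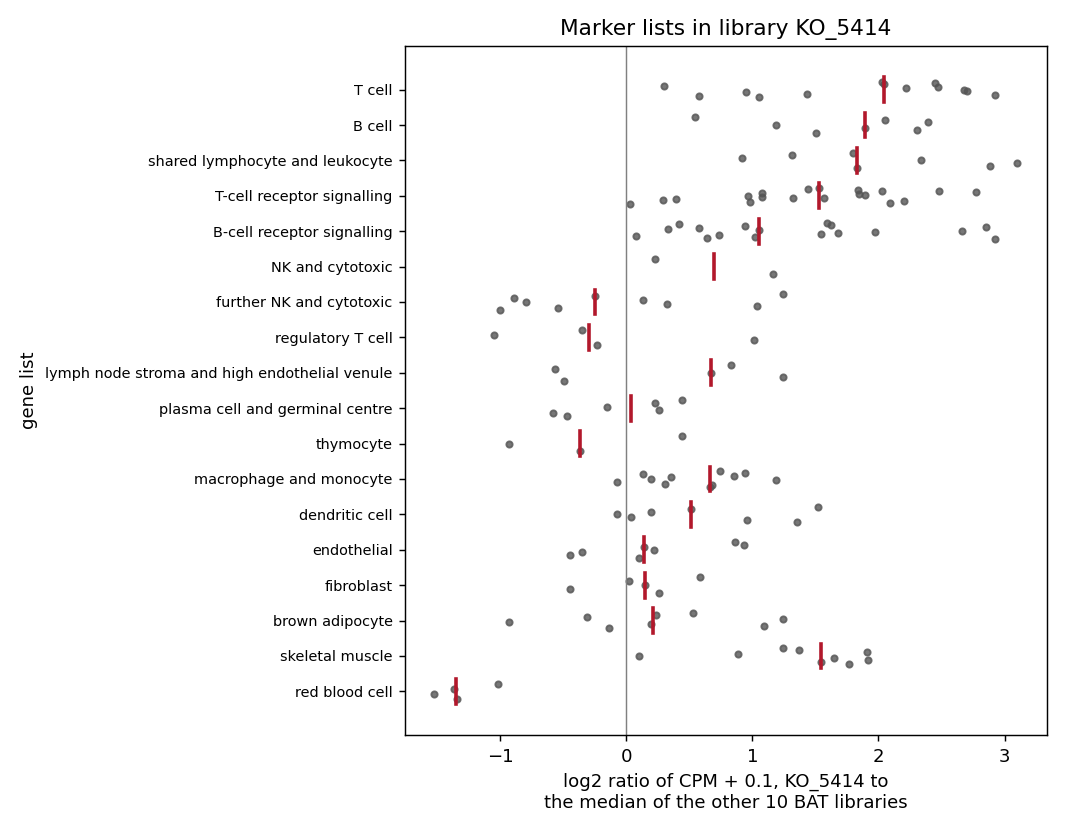
Each point is a gene with at least 10 counts in some library, placed by the log2 ratio of its level (CPM + 0.1) in KO_5414 to its median over the other 10 BAT libraries. Red bars are list medians, at 2.04 for T cell, 1.89 for B cell and 0.67 for macrophage and monocyte genes and at -0.25 for further NK genes. Skeletal muscle genes had a median of 1.54, T cell receptor signalling genes 1.52, B cell receptor signalling genes 1.05 and lymph node stroma genes 0.67.

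Markers of other cell types were set beside these values. Macrophage and monocyte genes were highest in KO_5414 for 7 of 11, none of them over 2 times the next library, and their sum was 169 CPM there, 102 to 192 CPM in floxed BAT and 93.0 to 149 CPM in the other BATI4KO libraries. Of the 5 thymocyte genes, Rag1 and Dntt had 0 to 2 counts in every BAT library, Rag2 and Ptcra were lowest in KO_5414, at 1.97 and 0.810 CPM, and Cd1d1 was highest there, at 157 CPM. Lep, the adipokine leptin, was at 45.0 CPM in KO_5414 and 8.59 to 21.1 CPM in the others. The 9 skeletal muscle genes summed to 2691 CPM in KO_5414, 161 to 1296 CPM in floxed BAT and 690 to 19893 CPM in the other BATI4KO libraries. The 4 red blood cell genes summed to 42.7 CPM in KO_5414, below the 72.0 to 182 CPM of floxed BAT and the 70.4 to 232 CPM of the other BATI4KO libraries. The part of these cells in the lymphocyte values was not tested.

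White vastus held little RNA of most members. In WV, 11 members were high enough to test between genotypes, 0 passed with edgeR, 0 of them had an unadjusted p under 0.05, and DESeq2 and voom called 0. Over all 14529 models tested, 0.00688% passed and 1295 had an unadjusted p under 0.05. The members' median log2 difference was 0.11, with 7 of 11 positive. A muscle library with the number of KO_5414 was not analysed here. No member's genotype difference was shown to differ between tissues: of 25 members in the interaction test 0 passed, and 0.018% of all tested models passed. An unadjusted p under 0.05 was found for 3 of the 25, against 1766 of 16632 models, a similar share. DESeq2 and voom called 0 there as well.

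Between tissues, the members did not behave as 1 block. On a scale shared by all 21 libraries, 15 of 25 tested members were higher in floxed BAT than in floxed WV, against 34.1% of all tested models, and 2 were lower, against 31.7%. The title-number term of this fit was set by both genotypes, so KO_5414 also enters the tissue difference. Without KO_5414, 13 of 23 members were higher, against 5600 of 16527 models, and 2 were lower, against 5256. The members' median log2 difference fell from 1.33 to 1.09. Scaled by library totals only, with all 21 libraries, 20 members were higher and 2 lower, against 57% and 15.9% of all tested models. In WV alone, 11 members passed the filter on low counts. Ltb, Cd5, Gzmb, Nkg7 and Cd2 were at or near 0 counts in most WV libraries and entered the test through BAT. Cd79a, Lck, Ccr7, Cd52 and Il7r, at 0 to 17 counts in the WV libraries, did not pass the filter in WV alone either. The filter thus favoured a higher call for such members, and the count of 15 includes them. Cd79a was at 0.642 ± 0.23 CPM in floxed BAT and 0.0653 ± 0.058 CPM in floxed WV (SD, n = 5 each), with a fitted log2 difference, BAT minus WV, of 3.25 (SE 0.64, edgeR adjusted p = 0.000128). Lck was at 0.376 ± 0.14 and 0.0704 ± 0.053 CPM, with a fitted log2 difference of 2.82 (SE 0.75, edgeR adjusted p = 0.00229). The fit carried the kind of title number, and numbers 1 to 3 occur only in BAT. Fitted tissue differences therefore refer to BAT of the longer numbers against WV, and need not match the plain means of the 5 floxed libraries. Floxed libraries did not overlap between tissues for either gene. Ltb had 40 counts in floxed BAT and 0 in floxed WV, which made it at least 8.06-fold higher when 3 counts over the WV group are taken as the floor. Cd5 had 54 counts against 1, a ratio of 32.6 with an exact 95% interval of 5.61 to 1310 that covers counting error only. Gzmb had 48 against 1 (29-fold, interval 4.96 to 1170) and Nkg7 50 against 2 (15.1-fold, interval 3.97 to 128).

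Cd2, Cd52, Ccr7, Il7r and Cd3d also passed as higher in floxed BAT, as did Cd22, Cr2, Cd37 and Ptprc. Ptprc was at 11.5 ± 3.7 CPM in floxed BAT and 5.77 ± 2.4 CPM in floxed WV, with overlapping libraries. Its fitted log2 difference was 1.33 (SE 0.40, edgeR adjusted p = 0.00552). Cd37 was closest to the threshold, at 1.12 on the log2 scale (adjusted p = 0.0489 in edgeR), and it no longer passed when KO_5414 was left out, at a log2 difference of 0.89. In 13 of the 21 fits that each left out 1 library Cd37 did not pass, with values down to 0.89, and Cd2, at 2.73 with all libraries, did not pass in 4, those without BAT FX_5497 or without WV FX_5497, FX_5503 or FX_5514 (2.40 to 2.56).

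Cd28 and Cd27 were the 2 members lower in BAT. Cd28 was at 1.47 to 11.9 CPM in floxed WV and at 4.96 to 15.3 CPM in BATI4KO WV, while floxed BAT held 0.311 to 0.719 CPM. No floxed BAT library reached the lowest WV library, and the fitted log2 difference, BAT minus WV, was -3.08 (SE 0.64, edgeR adjusted p = 0.000231). Cd27 was at 2.40 ± 1.2 CPM in floxed WV and 1.13 ± 0.39 CPM in floxed BAT, with overlap. Its fitted log2 difference was -1.56 (SE 0.35, edgeR adjusted p = 0.000469). Both stayed below 0 and past the threshold under every scaling tried, although plain library totals moved the median of all genes to 0.79 from 0.11.

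The muscle counts of Cd28 stood apart from those of most other T cell genes in the same libraries. Its counts in WV were 30 to 379 per library, while Cd27 had 15 to 97. Cd8a had 5 to 36, Cd3e 2 to 31, Cd4 10 to 29 and Cd3d 3 to 24. Among the lowest, Lck had 0 to 6, Cd3g 0 to 2 and Cd5 0 to 4. Per kilobase, Cd27 and Cd28 were in places 1 and 2 among the members in floxed WV, at 1.24 ± 0.63 and 1.05 ± 0.67 RPKM, and did not differ beyond their spread. In floxed BAT they were in places 4 and 24 of 29, at 0.584 ± 0.20 and 0.103 ± 0.028 RPKM. RefSeq places no other gene over Cd28. Between genotypes in WV, Cd28 had a log2 difference of 0.68 (SE 0.45, edgeR adjusted p = 0.697).

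**Figure D4:**
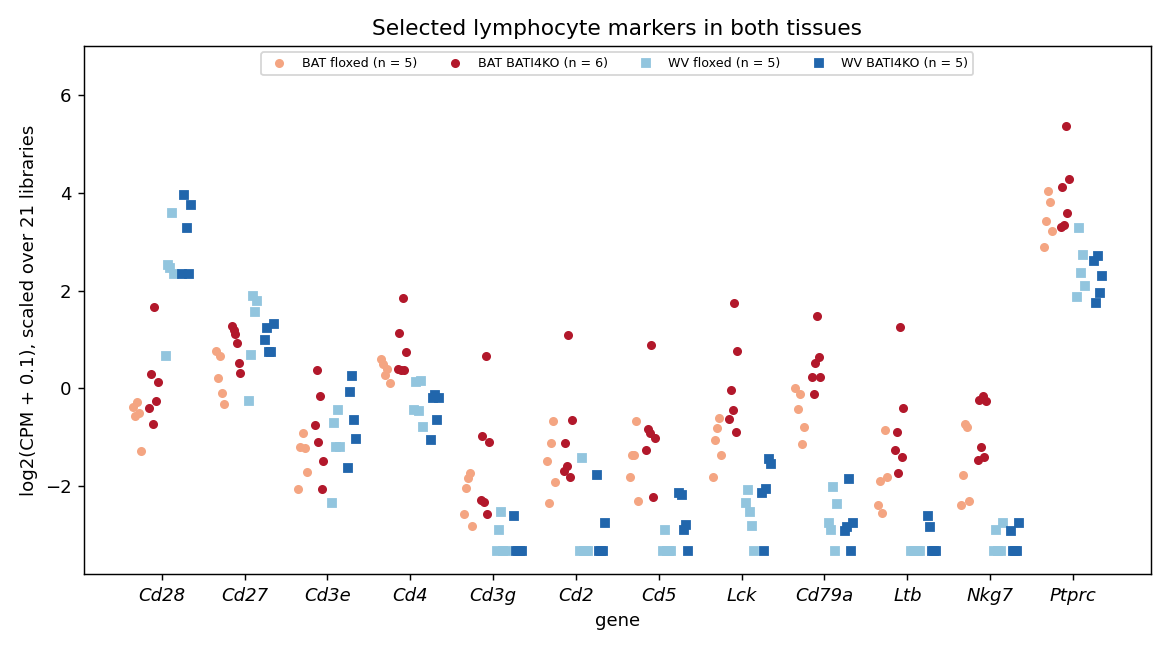
Each point is a library, with log2(CPM + 0.1) on a scale shared by all 21 libraries, for 12 members; circles are BAT and squares WV. Cd28 squares lie above all floxed BAT circles, while Cd3g, Lck, Cd79a, Ltb and Nkg7 squares lie near or at 0 counts.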

How the data were processed

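The authors deposited raw read counts per gene model for whole brown fat and white vastus, 1 table a tissue, per the file headers. Per the labels' protocols, RNA was depleted of ribosomal RNA, primed with random hexamers and made into Nextera XT libraries. The submitters' processing notes list featureCounts 1.4.6 beside TopHat2 2.0.14, edgeR and the build mm9; counting settings, strand included, were stated in no source at hand. No coordinates of that build are printed, and promoter windows come from RefSeq on GRCm38.p6.

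Counts were tested as deposited in R 4.3.3 with edgeR 4.0.16 (filterByExpr, TMM, quasi-likelihood test, Benjamini-Hochberg over all tested models, threshold 0.05). The BAT fit had genotype and the kind of title number as terms, the WV fit genotype, and a fit of all 21 libraries tissue, genotype, their interaction and title number. DESeq2 1.42.0, voom in limma 3.58.1, other scalings and filters, summed models and leaving out each library were alternatives. The edgeR fits were first tested on simulated data. CPM and RPKM were computed from the counts with TMM library sizes; differences between replicates exceeded counting noise in every pair of the same group. Columns without a sample numbered 0.

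The members and the other gene lists were chosen with earlier results of these data known. Named were, in each role group, the members with the widest and narrowest library gaps, every member past a test, all measured stroma genes and up to 3 genes of another list with the smallest p; further members were described by their highest library, and Lep was named after its values were seen. Some genes of the other lists are not reported here. Floors and exact intervals cover counting error only.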

Additional observations from a re-analysis of the deposited data

Results flagged for a closer look

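In the BATI4KO BAT group of 6, KO_5414 was set apart from the nearest other library by more than Dixon's 95% critical value allows for 15 members. The rule was applied to the members only, so no share over all tested models stands beside this count. Its levels were 2.75 CPM for Cd3d, 1.94 for Cd3g, 2.03 for Cd8b1, 2.66 for Cd2, 2.29 for Cd5 and 4.02 for Cd28 among the T cell markers. They were 3.53 CPM for Cd79a, 4.14 for Cd79b, 4.31 for Ms4a1, 4.92 for Cd22 and 0.868 for Pax5 among the B cell markers. The shared markers were 53.8 CPM for Ptprc, 3.01 for Ltb, 10.04 for Il7r and 2.95 for Ccr7. In floxed BAT, FX_1 stood apart for Cd8a at 1.95 CPM.

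In WV the values that stood apart were a few reads each. In the floxed group they were Cd2 at 0.199 CPM, Cd5 at 0.0249, Gzmb at 0.0249 and Cd52 at 0.224 CPM in FX_5415, and Cd6 at 0.302 and Pax5 at 0.0275 CPM in FX_5497. In the BATI4KO group they were Cd3g at 0.046, Cd2 at 0.138, Pax5 at 0.023 and Gzmb at 0.046 CPM in KO_5492, Cd8b1 at 0.188 and Cd6 at 0.188 CPM in KO_5495, Cd79a at 0.129 CPM in KO_5494 and Cd52 at 0.0853 CPM in KO_5493. In all, 30 of 115 groups tested stood out. Chance gives about 1 in 20 for independent, continuous values, a rate that cannot be applied here: 15 of the 30 were the single library KO_5414, and in 7 of the 14 in WV every other library was at 0.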

How the results depend on the processing

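Over the alternatives run, no BAT member was called by any edgeR or voom fit, and DESeq2 called 2, where it called 198 models higher and 174 lower in all. The BAT median log2 difference of 0.87 became 1.73 with the longer title numbers only, a fit that also took in members too low for the main fit. It was 0.59 to 1.04 when each library was left out in turn, and the count of members called was then 0 to 0. In WV the median became -0.28 with a filter of at least 1 CPM in at least 5 libraries, and -0.042 to 0.31 with each library left out, with 0 to 0 called; the interaction also called 0 to 0. The tissue comparison called 15 to 18 members with each library left out, 10 with the 1 CPM filter, which tests fewer members, and 11 with a replicate block on the 4 title numbers present in both tissues, which uses fewer libraries and no longer called Cd79a, Cd22, Cr2, Il7r, Ccr7 or Cd37 (the smallest adjusted p of a B cell member was then 0.072). Scaled by library totals only it called 20 members higher and 2 lower. In BAT the replicate block on numbers 1 to 3 called 0. Same-numbered libraries deviated together with r of 0.134, -0.12 and 0.0682 between genotypes and -0.000846 to 0.0653 between tissues, so they were taken to share only a number. For WV genotypes no paired analysis was possible because they share no title number. Some BAT genes changed sign. Cd3d was at -0.037 without FX_3 (-0.037 to 0.32 with each library left out), -0.051 with short title numbers only and -0.01 without KO_5414 in DESeq2. With each library left out Il7r ran from -0.35, without KO_5414, to 0.89, without FX_3, and it was at -0.06 without FX_5503, -0.84 with short numbers only, and, without KO_5414, -0.32 with no covariate, -0.40 in DESeq2 and -0.27 in voom. Cd52 was at -0.27 with short numbers only, and Cd3e and Cd5 were at -0.43 and -0.29 with long numbers without KO_5414. The cause was not tested for these. Members near 3 counts per library, among them Blk, Pax5 and Cd3g, are limited by depth.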
